A study of Mus musculus with 6 samples.

Results

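The genes described are the CXCR3 ligand chemokines Cxcl9, Cxcl10 and Cxcl11, which lie side by side on mouse chromosome 5, together with Cxcl16 on chromosome 11. They were selected by gene symbol and make up 4 of the 55453 genes in the count table. All 4 passed the filter on low counts and were among the 13680 genes tested. RNA was sequenced from bone marrow-derived macrophages (BMDM), which are macrophages grown from marrow cells of the hind legs in M-CSF or in medium conditioned by L929 fibroblasts. The 3 PP2Ac KO libraries came from LysMcre PP2Ac fl/fl mice on C57BL/6, in which cre under the lysozyme 2 promoter deletes the floxed first exon of Ppp2ca, the gene of the catalytic subunit PP2Ac of protein phosphatase 2A, in myeloid cells. The 3 PP2Ac WT libraries came from C57BL/6 mice of a commercial supplier that carry neither allele, so the deletion, the cre and the colony cannot be told apart. The labels give no treatment for either group, whereas the study describes BMDM of both genotypes stimulated with cGAMP, the cyclic dinucleotide that activates STING, for its RNA-Seq. The study used young adult mice of both sexes, and neither the age nor the sex behind each library is given in the sources used here.

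CXCL9, CXCL10 and CXCL11 are small secreted chemokines that bind the same receptor, CXCR3, which is carried by activated T cells and NK cells and draws them into inflamed tissue and tumors. Macrophages make them after exposure to interferon. CXCL9 is best known as a product of interferon-gamma, while CXCL10 responds to type I interferon, interferon-gamma and NF-κB alike. CXCL16 has another receptor, CXCR6, and is made as a membrane protein with a chemokine domain on a stalk, from which the proteases ADAM10 and ADAM17 release it. It is therefore not a CXCR3 ligand and served here as a chemokine that also attracts T cells but lies elsewhere in the genome. C57BL/6 mice carry a frameshift in Cxcl11, so its RNA was measured in a strain that does not make the functional protein.

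In GRCm38 the CXCR3 ligand genes were all annotated on the minus strand of chromosome 5. Cxcl9 (ENSMUSG00000029417.9) spans 92321347 to 92328079, Cxcl10 (ENSMUSG00000034855.13) spans 92346638 to 92348889, and Cxcl11 (ENSMUSG00000060183.6) spans 92359544 to 92365485. The gap between Cxcl9 and Cxcl10 was 18558 bp and that between Cxcl10 and Cxcl11 was 10654 bp, so the trio covered 44139 bp. Cxcl16 (ENSMUSG00000018920.11) spans 70453983 to 70459984 on the minus strand of chromosome 11. GENCODE M21 lists Cxcl11 as a polymorphic pseudogene, with a coding stretch of 302 bp in one transcript and 297 bp in another. Coding length was 378 bp for Cxcl9, 294 bp for Cxcl10 and 738 bp for Cxcl16, the last being longer because of its stalk and membrane segment.

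The sequences just before the start sites of Cxcl9 and Cxcl10 are shown because these neighbors code for ligands of 1 receptor and yet hold different motif matches. They were taken from RefSeq (GRCm38.p6), which gave an entry for 2 of the 4 genes, and were read 5′ to 3′ on the minus strand, at chr5:92328080-92328329 for Cxcl9 and chr5:92348890-92349139 for Cxcl10. Capitals mark matches to the core of the interferon-stimulated response element (ISRE, GAAANNGAAA), to the interferon-gamma-activated site (GAS, TTCNNNGAA) or to the NF-κB consensus, each searched on both strands.
Cxcl9: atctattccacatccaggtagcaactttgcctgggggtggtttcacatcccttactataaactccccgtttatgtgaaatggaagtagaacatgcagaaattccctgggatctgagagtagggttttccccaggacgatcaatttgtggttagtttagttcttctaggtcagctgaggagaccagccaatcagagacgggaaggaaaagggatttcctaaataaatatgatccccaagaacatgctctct
Cxcl10: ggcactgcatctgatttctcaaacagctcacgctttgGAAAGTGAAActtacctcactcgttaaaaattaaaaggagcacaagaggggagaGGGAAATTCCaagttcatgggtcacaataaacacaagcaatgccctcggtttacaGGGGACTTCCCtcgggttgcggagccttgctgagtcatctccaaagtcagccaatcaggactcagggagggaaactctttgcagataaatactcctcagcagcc
The Cxcl10 sequence held 1 ISRE core (GAAAGTGAAA) at 213 to 204 bp before the start site. It also held NF-κB matches at 159 to 150 bp (GGGAAATTCC), at 104 to 95 bp (GGGGACTTCC) and, overlapping the latter, at 103 to 94 bp (GGGACTTCCC). The Cxcl9 sequence held no match to any of these motifs, which says only that these letters are not within its 250 bp. Among 32851 mouse sequences of this length, 2.98% held the ISRE core, 7.02% the GAS element and 7.25% the NF-κB consensus. A match is a run of letters and was not tested as a binding site.

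Library totals ran from 35257156 to 47390899 counts, and 3 counts, taken as the floor of detection, corresponded to 0.0604 to 0.0909 counts per 1000000 counts of the library (CPM). Ppp2ca had 47, 33 and 38 counts in PP2Ac KO replicates 1, 2 and 3 and 10654, 8913 and 8279 counts in the PP2Ac WT replicates, so every library carried the level its label implies. Macrophage genes were abundant in every library, the sum of 8 markers being 8623 to 8733 CPM in PP2Ac KO and 7279 to 7840 CPM in PP2Ac WT. Lyz2, which has a near-identical copy in Lyz1, stood low among them at 6.58 to 10.1 CPM. Whether its reads were split between the copies was not tested.

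All 4 chemokine genes were expressed more highly in PP2Ac KO than in PP2Ac WT BMDM. Cxcl11 rose 6.70-fold, Cxcl9 4.73-fold, Cxcl10 2.58-fold and Cxcl16 1.48-fold, and for each gene every PP2Ac KO library lay above every PP2Ac WT library. All 4 passed an FDR of 0.05 as higher, which 18.1% of all genes tested did (19.0% passed as lower). The CXCR3 ligands, 3 of the 4 genes, also passed the stricter rule of a log2 fold change over 1 with FDR under 0.01, which 3.36% of genes passed. Separation of all PP2Ac KO libraries above all PP2Ac WT libraries was found for 24.0% of genes. The median log2 fold change of the 4 genes was 1.80, and that of all genes tested was -0.02. In RNA from whole cultures, more expressing cells and more RNA per cell cannot be told apart.

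**Figure D1:**
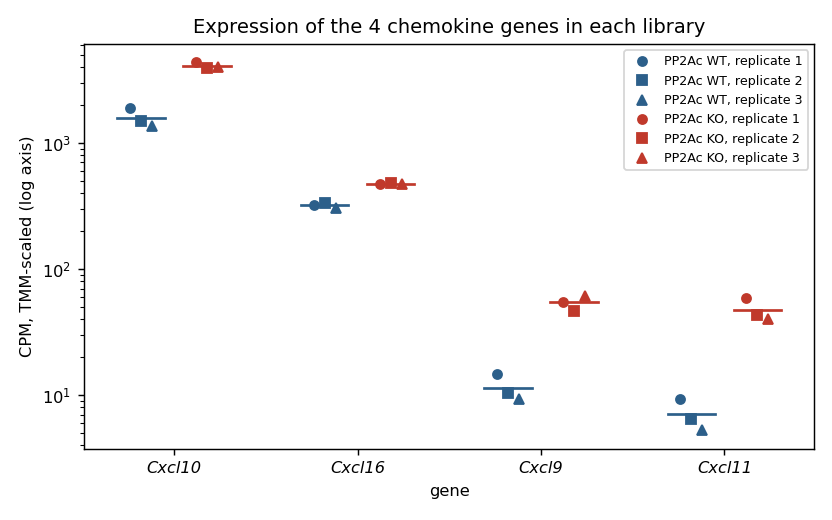
CPM of Cxcl9, Cxcl10, Cxcl11 and Cxcl16 in each library, with points for the 3 replicates of each genotype and the group mean marked. For each gene the lowest PP2Ac KO library lies above the highest PP2Ac WT library, with Cxcl10 at 3900 to 4354 CPM against 1352 to 1898 CPM.

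Cxcl9 was counted 2337, 1528 and 2561 times in PP2Ac KO replicates 1, 2 and 3, which is 55.1, 46.3 and 61.4 CPM. In PP2Ac WT it was counted 731, 449 and 387 times, or 14.7, 10.3 and 9.23 CPM. The lowest PP2Ac KO library, replicate 2, thus stood well above the highest PP2Ac WT library, replicate 1. Group means were 54.2 ± 7.58 CPM (SD, n = 3) and 11.4 ± 2.90 CPM (SD, n = 3). The log2 fold change of Cxcl9 was 2.24 (SE 0.167), with an adjusted p of 5.51e-05 in edgeR's quasi-likelihood test. Cxcl9 ranked 46th of the genes tested by log2 fold change. Between libraries with the same replicate number the log2 difference was 1.90, 2.16 and 2.73, the widest spread of the 4 genes.

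Cxcl10 was by far the most abundant of the chemokines, with 184717, 128738 and 165923 counts in PP2Ac KO and 94313, 65204 and 56664 counts in PP2Ac WT. This was 4354, 3900 and 3976 CPM against 1898, 1499 and 1352 CPM. Here too the groups did not overlap, and PP2Ac WT replicate 1 was again the highest of its group. The means of 4077 ± 243 and 1583 ± 283 CPM (SD, n = 3 each) differed by 2494 CPM, the 6th largest gain of any gene tested. The log2 fold change of Cxcl10 was 1.36 (SE 0.123, edgeR adjusted p = 9.73e-05), which was 255th in rank. Replicate by replicate it was 1.20, 1.38 and 1.56. By mean CPM, Cxcl10 stood 19th among all genes tested in PP2Ac KO and 40th in PP2Ac WT.

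Cxcl11 had the largest relative change of the 4, from a low level in PP2Ac WT. It was counted 2484, 1424 and 1677 times in PP2Ac KO (58.6, 43.1 and 40.2 CPM) and 463, 282 and 220 times in PP2Ac WT (9.32, 6.48 and 5.25 CPM). Replicate 1 was the highest library of each genotype, and the groups were far apart. Mean levels were 47.3 ± 9.86 CPM and 7.02 ± 2.09 CPM (SD, n = 3 each). The log2 fold change was 2.74 (SE 0.207, edgeR adjusted p = 5.51e-05), the 15th highest of all genes tested. Same-numbered libraries differed by 2.65, 2.73 and 2.94 on the log2 scale.

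Cxcl16 changed least and varied least. Its counts were 19933, 15977 and 19554 in PP2Ac KO and 15989, 14433 and 12757 in PP2Ac WT, or 470, 484 and 469 CPM against 322, 332 and 304 CPM. Replicate 2 was highest in both groups on the CPM scale, unlike the CXCR3 ligands, and the groups did not overlap. Means were 474 ± 8.54 CPM and 319 ± 13.9 CPM (SD, n = 3 each). The log2 fold change of 0.57 (SE 0.0646, edgeR adjusted p = 2.48e-04) was 1406th in rank, with 10.3% of genes tested rising by more. Differences between same-numbered libraries were 0.55, 0.54 and 0.62.

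**Figure D2:**
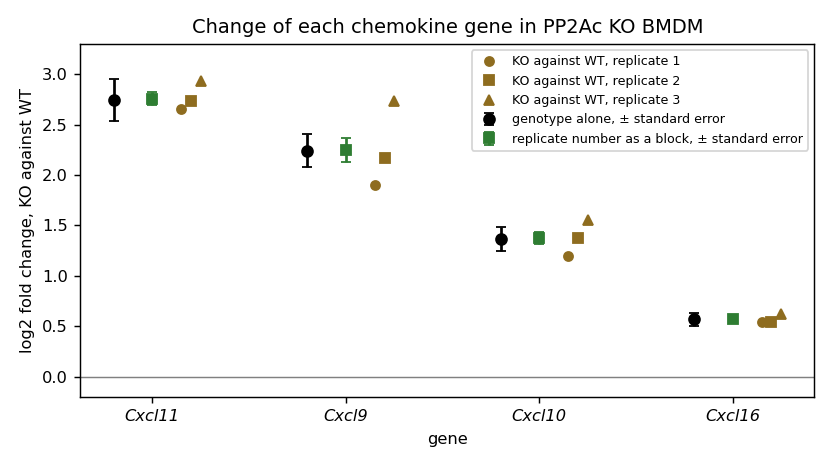
Log2 fold change of PP2Ac KO against PP2Ac WT for the 4 chemokine genes, with the fitted value and its standard error beside the differences between same-numbered libraries. Cxcl11 (2.74) and Cxcl9 (2.24) stand above Cxcl10 (1.36), and Cxcl16 is lowest at 0.57.

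Levels of different genes were compared per length, as CPM divided by the exon length in kilobases (FPKM). This length joins the exons of all annotated transcripts. For Cxcl9, Cxcl10 and Cxcl16, but not Cxcl11, these include transcripts with a retained intron. The length used for Cxcl10, 2252 bp, equals its whole span, so the FPKM levels depend on this choice. Cxcl10 was highest, at 1810 ± 108 FPKM in PP2Ac KO and 703 ± 126 FPKM in PP2Ac WT (SD, n = 3 each). Cxcl16 followed at 157 ± 2.83 and 106 ± 4.62 FPKM, then Cxcl9 at 17.99 ± 2.51 and 3.79 ± 0.962 FPKM, and Cxcl11 at 12.5 ± 2.60 and 1.85 ± 0.550 FPKM. The order was the same in both genotypes. Cxcl9 and Cxcl11 were the only neighbors in it whose libraries overlapped, in PP2Ac KO alone, where Cxcl9 ran from 15.3 to 20.3 FPKM and Cxcl11 from 10.6 to 15.4 FPKM. In PP2Ac WT, Cxcl9 ran from 3.06 to 4.88 FPKM and Cxcl11 from 1.38 to 2.46 FPKM.

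Reads of the CXCR3 ligands were almost all from Cxcl10. Cxcl10 made up 97.5% to 97.8% of the reads on these 3 genes in PP2Ac KO and 98.8% to 98.9% in PP2Ac WT. The share of Cxcl9 was 1.16% to 1.51% in PP2Ac KO and 0.676% to 0.765% in PP2Ac WT. That of Cxcl11 was 0.986% to 1.31% and 0.384% to 0.485%, respectively. The minor ligands thus took a larger share in every PP2Ac KO library than in any PP2Ac WT library. Together the 3 genes took 0.374% to 0.406% of all counts in PP2Ac KO and 0.150% to 0.202% in PP2Ac WT.

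Whether the genes changed by different amounts was examined from the ratio of their counts within each library, in which library size cancels. The count ratio of Cxcl10 to Cxcl11 was 74.3, 90.4 and 98.9 in PP2Ac KO and 203, 231 and 257 in PP2Ac WT, a difference of -1.39 in mean log2 ratio. The ratio of Cxcl9 to Cxcl10 was 0.0127, 0.0119 and 0.0154 in PP2Ac KO and 0.00776, 0.00689 and 0.00684 in PP2Ac WT, a log2 difference of 0.89. Cxcl9 and Cxcl11 therefore both gained on Cxcl10 in every PP2Ac KO library. The ratio of Cxcl9 to Cxcl11 was 0.941, 1.07 and 1.53 in PP2Ac KO and 1.58, 1.59 and 1.76 in PP2Ac WT, a log2 difference of -0.51 in which PP2Ac KO replicate 3 lay just below the PP2Ac WT libraries. Against Cxcl16, the log2 difference was 2.20 for Cxcl11, 1.70 for Cxcl9 and 0.81 for Cxcl10. For each of the 6 pairs the genotypes did not overlap. This gave a p of 0.1 in the 2-sided exact permutation test over libraries (Benjamini-Hochberg adjusted p = 0.1), the smallest that 3 against 3 libraries allow. The 6 ratios share genes with each other, so they are not independent. How often ratios between other genes separate in this way was not examined.

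**Figure D3:**
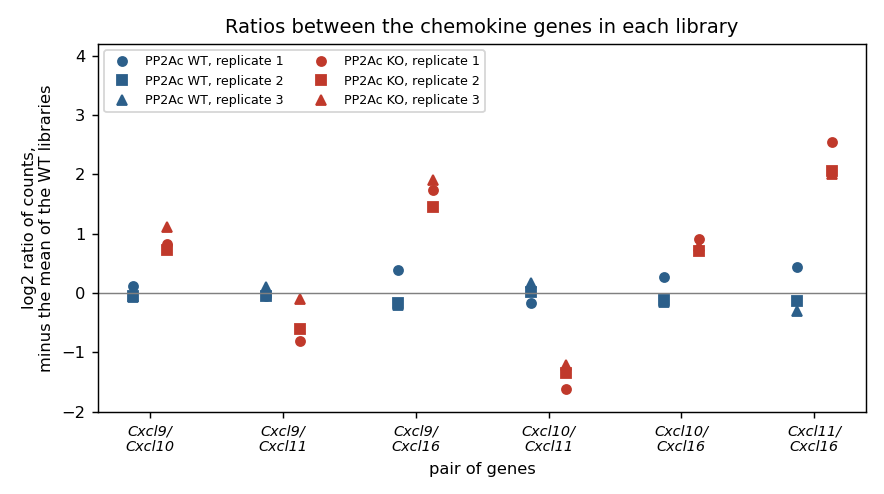
Log2 ratio of counts between each pair of the 4 genes in each library (y axis, with the mean of the PP2Ac WT libraries set to 0), with symbols for replicates and colors for genotypes. Cxcl11 gains most against Cxcl16 (log2 difference 2.20), and Cxcl9 against Cxcl11 shows the narrowest separation (-0.51).

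Genes around the chemokine genes were examined next. Here and below, counts of called genes stand beside the shares of all genes tested, 18.1% higher and 19.0% lower in the fit on genotype alone. At the CXCR3 ligand locus 1 of 5 tested neighbors rose and none fell, with a median log2 fold change of 0.05, which is near those shares. Art3, which codes for an ADP-ribosyltransferase family member, had 59, 36 and 55 counts in PP2Ac KO and 29, 18 and 13 in PP2Ac WT (log2 fold change 1.52, SE 0.260, edgeR adjusted p = 0.00178). Art3 runs on the opposite strand across all of Cxcl10 and Cxcl11 and shares 133 exon bases with Cxcl10, and since the strand setting of the counting is not given in the sources used here, reads on the shared bases could belong to either gene. The flanking genes Naaa, Sdad1 and Nup54 had log2 fold changes of -0.03, -0.02 and 0.05 and did not pass the test. Scarb2, which codes for a lysosomal membrane protein, had 0.23 (adjusted p = 0.0599) and passed in the fit with the replicate block (adjusted p = 0.00166). Cxcl11 shares 1582 of its 3794 exon bases with the pseudogene Gm2673 on the opposite strand, which had 0 counts in all 6 libraries. How reads on these shared bases were counted is not known either, and their effect on the level of Cxcl11 was not tested.

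Around Cxcl16, 2 of 5 neighbors rose and 1 fell, with a median log2 fold change of 0.04. Zmynd15, a gene for a zinc finger protein, lies opposite Cxcl16 and shares 552 exon bases with it. Its counts were 3053, 2406 and 2713 in PP2Ac KO and 2154, 2082 and 1794 in PP2Ac WT, a log2 fold change of 0.65 (SE 0.0708, edgeR adjusted p = 2.09e-04) beside 0.57 for Cxcl16. Reads within the shared bases could belong to either gene, and their part in the result was not tested. Med11, a Mediator subunit, rose by a log2 fold change of 0.29 (adjusted p = 0.00973), and the kinase gene Mink1 fell (-0.18, adjusted p = 0.0416). Pelp1 and Arrb2 had 0.02 and 0.04 and did not pass.

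**Figure D4:**
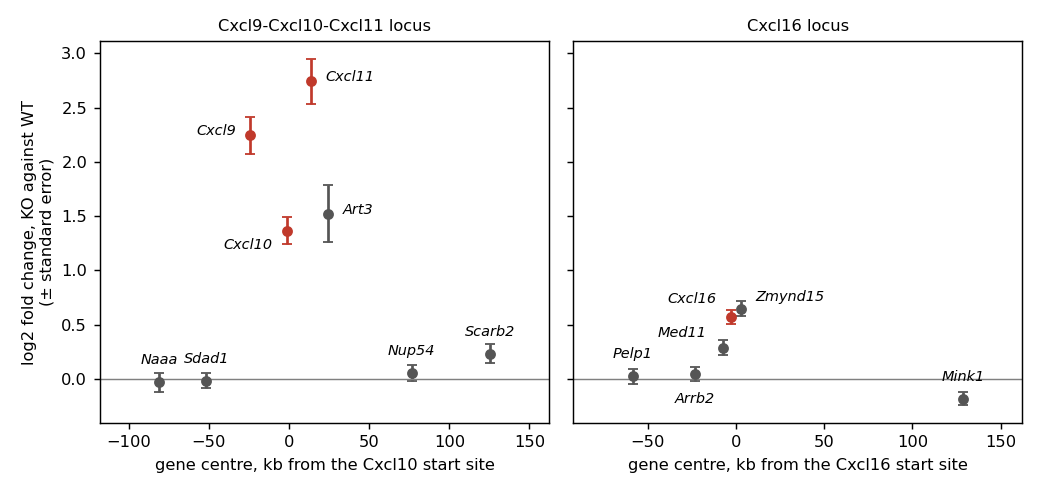
Log2 fold change of PP2Ac KO against PP2Ac WT (± SE, y axis) by the position of each gene's centre in kb from the start site of Cxcl10 (left) or Cxcl16 (right), with higher genome positions to the right. Cxcl9, Cxcl10 and Cxcl11 (red) and Art3 stand above 1, while Naaa (-0.03), Sdad1 (-0.02) and Nup54 (0.05) lie near 0.

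For each chemokine gene, the genes with the most similar profile were sought among 11445 genes with a mean of at least 1 CPM, by the root-mean-square difference of log2 CPM over the 6 libraries, each centred on its own mean. Ctsc, which codes for the protease cathepsin C, was nearest to Cxcl10 (0.0176), followed by Calhm6 (0.0291) and the gene of the peptidoglycan sensor Nod1 (0.0359). Nearest to Cxcl9 were Serpina3f, a serine protease inhibitor gene (0.0947), the early activation marker Cd69 (0.141) and the interleukin-12 receptor gene Il12rb1 (0.158). Those nearest to Cxcl11 were Nos2, the inducible nitric oxide synthase (0.141), and the guanylate-binding protein genes Gbp6 (0.159) and Gbp4 (0.222). Cxcl16 lay nearest to Gadd45g (0.0294) and Ubtd1 (0.0334). No chemokine gene was among the nearest 3 of another, the closest of them being Cxcl9 and Cxcl11 at 0.328 and the farthest Cxcl11 and Cxcl16 at 1.13. These distances span 6 libraries in 2 groups, so genes with a similar log2 fold change lie near each other. Ctsc and Cxcl10, for example, both had 1.36. The distances therefore largely restate the fold changes, and co-regulation apart from the genotype difference was not tested.

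The receptors of these chemokines were hardly expressed by the BMDM. Cxcr3 had 43 to 54 counts in PP2Ac KO and 52 to 64 in PP2Ac WT (log2 fold change -0.10, edgeR adjusted p = 0.693), and Cxcr6, the receptor of CXCL16, had 0 to 8 counts and was not tested. Of 7 genes for receptors, scavengers and proteases of these ligands, 5 were tested, of which 2 rose and 1 fell (median log2 fold change -0.07). The shares of all genes tested were 18.1% and 19.0%. Dpp4, whose product trims the amino terminus of CXCR3 ligands, rose from 25, 12 and 15 counts in PP2Ac WT to 137, 82 and 57 counts in PP2Ac KO (log2 fold change 2.61, SE 0.364, adjusted p = 6.33e-04). All PP2Ac KO libraries lay above those of PP2Ac WT, at a low level. Adam17, which sheds CXCL16, rose with a log2 fold change of 0.42 (SE 0.0813, adjusted p = 0.00350), whereas Adam10 had -0.07 (adjusted p = 0.468). Ackr3, a scavenger receptor of CXCL11 and CXCL12, fell (log2 fold change -1.71, adjusted p = 0.0174) on 4 to 16 counts in PP2Ac KO and 22 to 62 in PP2Ac WT.

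Of the interferon genes and their receptors, 2 of the 5 tested rose and none fell (median log2 fold change 0.19), and with the replicate block 4 rose and 1 fell. Ifnb1, the gene of the type I interferon IFN-β, had 815, 433 and 644 counts in PP2Ac KO and 440, 257 and 181 in PP2Ac WT. PP2Ac KO replicate 2 lay just below PP2Ac WT replicate 1 in counts, but above it in CPM (13.1 and 8.86 CPM). Its log2 fold change was 1.32 (SE 0.231, edgeR adjusted p = 0.00200), close in size to that of Cxcl10. Ifnar2 also rose, by 0.23 (adjusted p = 0.0129). Ifng, the gene of interferon-gamma, had 0 counts in every library, which allows up to 3 counts, or 0.0604 to 0.0909 CPM, for counting error alone.

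Among 11 genes for JAK kinases, STAT factors and interferon regulatory factors, 9 rose and none fell (median log2 fold change 0.65). They included Irf7 (1.53), Jak2 (1.18), Stat2 (0.65), Irf1 (0.64) and Irf9 (0.28). Jak1 (0.14, adjusted p = 0.181) and Irf3 (-0.05, adjusted p = 0.636) did not pass the test, although Jak1 passed with the replicate block (adjusted p = 0.0176), which made 10 of 11 higher. Of 11 genes of STING and NF-κB signaling, 8 rose and none fell (median 0.45), with 10 higher and 1 lower, Ikbkg, with the replicate block. Tnf had the largest log2 fold change in this list (1.61), followed by Ikbke (0.91), Nfkb1 (0.75), Tnfrsf1a (0.58) and Rela (0.48). Of the genes for RNA-binding proteins that set mRNA stability, 6 of 6 rose (median 0.36), including Zfp36 (0.86) and Zc3h12a (0.67), which code for proteins that promote decay.

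Established targets of the same pathways gave a scale for the chemokine genes. All 10 targets of type I interferon rose, by log2 fold changes from 0.51 for Ifit1 to 1.63 for Oasl1 with a median of 1.12. The value of Cxcl10, 1.36, lay inside this range, those of Cxcl9 and Cxcl11 above it. Of 9 tested genes known as responders to interferon-gamma, 7 rose and 1 fell (median 1.06). Those that rose ran from Irf1 (0.64) to Gbp2 (1.67), with Gbp4 apart at 3.0. Cxcl10 lay among them, and Cxcl9 and Cxcl11 lay above all of them but Gbp4. Ciita, the master regulator of MHC class II genes, fell with a log2 fold change of -1.09 (adjusted p = 2.87e-04), and the class II gene H2-Ab1 had 0.07 (adjusted p = 0.788). Among 10 targets of TNF and NF-κB 8 rose (9 with the replicate block, which added Ptgs2, adjusted p = 0.00698) and none fell (median 1.37), among them Traf1 (1.70), Nfkbia (1.49) and Icam1 (1.43). The ISRE core seen before Cxcl10 was also found before Ifit1, Ifit3, Isg15 and Rsad2, 4 of the 8 type I interferon targets with a RefSeq sequence. It was found as well in 4 of 6 interferon-gamma responders with a sequence, Gbp2, Gbp5, Igtp and Socs1. Of these 6 genes, 3 held the GAS element and 2 the NF-κB consensus. The NF-κB consensus was found in 4 of 9 such TNF and NF-κB targets, among them Tnfaip2, which was not called (0.13, edgeR adjusted p = 0.187). It was also found in 3 of 9 other CXC chemokine genes, Cxcl1, Cxcl2 and the untested Cxcl3. Cxcl14, which fell (-0.91), held both the ISRE core and the GAS element. Among all mouse sequences searched, 2.98% held the ISRE core, 7.02% the GAS element and 7.25% the NF-κB consensus. Whether a match goes with a rise was not tested.

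**Figure D5:**
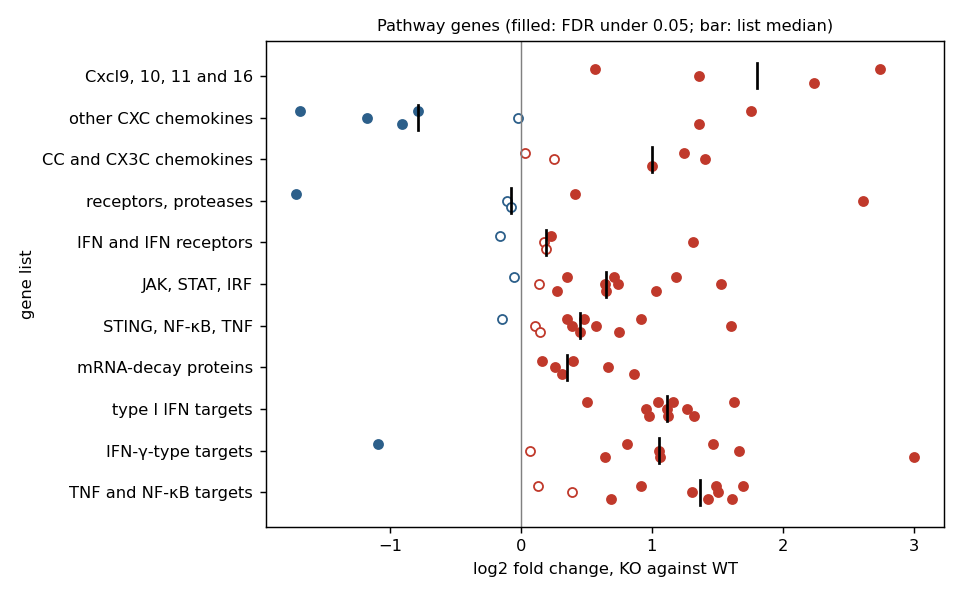
Log2 fold change of PP2Ac KO against PP2Ac WT (x axis) for each tested gene of the lists named on the y axis, filled where FDR was under 0.05, with a bar at the list median. The 4 chemokine genes (median 1.80) and the type I interferon targets (1.12) are filled throughout to the right of 0, whereas other CXC chemokines lie on both sides.

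Other chemokine genes moved in both directions. Of the 7 other CXC chemokine genes tested, 2 rose and 4 fell, with a median log2 fold change of -0.78. Cxcl2 (1.76, adjusted p = 9.29e-05) and Cxcl1 (1.36, adjusted p = 0.0190), which attract neutrophils, were higher. Cxcl5 (-1.68), Cxcl12 (-1.17), Cxcl14 (-0.91) and Ppbp (-0.78) were lower, whereas Pf4 had -0.02 (adjusted p = 0.941). Apart from Cxcl14, whose means were 31.4 and 58.8 CPM in the KO and WT groups, these genes were scarce, the highest mean being 10.1 CPM for Cxcl2 in PP2Ac KO. Libraries of the genotypes overlapped for Cxcl5, with PP2Ac KO replicate 2 at 0.364 CPM and PP2Ac WT replicate 3 at 0.358 CPM. They did not overlap for Cxcl12, Cxcl14 and Ppbp. Of the 5 tested genes for CC and CX3C chemokines that attract lymphocytes and other leukocytes, Ccl3 (1.41), Ccl5 (1.25) and Ccl4 (1.005) rose, while Ccl22 (0.25, adjusted p = 0.380) and Cx3cl1 (0.03, adjusted p = 0.834) did not pass.

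Markers of other cells were read beside these results. T and NK cell markers, whose cells make interferon-gamma and carry CXCR3, summed to 0.121 to 0.212 CPM in PP2Ac KO and 0.0477 to 0.101 CPM in PP2Ac WT, with 6 of 7 at 3 counts or fewer in every library and Cd8a at 0. All 4 fibroblast markers were lower in PP2Ac KO (median log2 fold change -2.004), their sum being 22.7 to 33.4 CPM against 74.9 to 117.7 CPM. The CXC chemokine genes that fell changed less than that median, from -1.68 for Cxcl5 to -0.78 for Ppbp. A link between their fall and the fibroblast markers was not tested. Of 3 endothelial genes, Kdr (1.09) and Cdh5 (1.40) were higher in PP2Ac KO and Tek had at most 4 counts, the sum being 192 to 243 CPM against 80.1 to 131 CPM. Among 5 dendritic cell markers, 1 of the 3 tested rose, Clec9a (1.25, adjusted p = 0.0284), and the sums were 1.49 to 2.66 CPM and 0.954 to 1.71 CPM. Neutrophil markers summed to 0.815 to 0.878 CPM and 0.644 to 1.07 CPM, and B cell markers to 0.684 to 1.34 CPM and 0.501 to 0.584 CPM, with none called. Of 8 macrophage markers 2 rose, Fcgr1 (0.70) and Mertk (0.27), or 5 with the replicate block, and none fell. The part of these cells in the chemokine differences was not tested.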

How the data were processed

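Libraries of BMDM, 3 per genotype, had been made from poly(A) RNA with a directional kit and sequenced on a NovaSeq. The authors deposited 1 table of read counts per gene and library, as whole numbers without normalization. The submitters' processing notes name fastp 0.20.0, kallisto 0.46.1, STAR 2.7.1a, HTSeq 0.11.2, edgeR 3.34.0, limma 3.48.3 and the builds mm10 and GRCm38. Which program counted, and with which strand setting, is not given in the sources used here. Without it, genes that overlap on opposite strands may share reads. Groups and replicate numbers came from the labels. Every column of the table was used.

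The filter, scaling and test were those of edgeR 4.0.16 under R 4.3.3. After filterByExpr (minimum count 10, minimum total 15) and TMM scaling, genotype was tested by glmQLFit and glmQLFTest, with p-values adjusted by Benjamini-Hochberg across 13680 genes. The SE is the absolute log2 fold change divided by the square root of F. CPM used TMM factors, FPKM the union of exons in GENCODE M21. Intervals and floors (3 counts) cover counting error only. Log2 ratios between genes had 0.5 added to each count. No libraries of the same genotype were duplicates, since counts of each such pair differed by more than sampling noise. The study describes its cell-based experiments as biological triplicates in general, and no source used here says that these replicates came from separate mice or cultures, so p-values measure only the spread between these samples.

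The replicate numbers 1, 2 and 3 in the labels are shared by both genotypes. Same-numbered libraries deviated together from their group means (correlation over genes 0.513, 0.347 and 0.515). Libraries with different numbers were not compared in this way, so whether the numbers mark true pairs was not tested. On the assumption that they do, a replicate block was fitted as an alternative. Others were DESeq2 1.42.0, limma 3.58.1 (voom), RLE and upper-quartile scaling, no filter, at least 10 counts in every library, and leaving out each library. The pipeline was tested on simulated data.

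The chemokine genes and all lists were chosen with earlier results of these data known. Named genes were the 4 chemokines, genes of the lists (those with the largest change among the called ones, and those that missed the call), the 3 genes nearest in profile to each chemokine (0.1 CPM added before the logarithm) and Ppp2ca. Some genes that this rule would name are not reported here.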

Additional observations from a re-analysis of the deposited data

How the results depend on the processing

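The 4 chemokine genes kept their direction and an FDR under 0.05 under all 7 alternatives and without each of the 6 libraries. Log2 fold changes ran from 2.18 to 2.27 for Cxcl9, 1.30 to 1.39 for Cxcl10, 2.68 to 2.77 for Cxcl11 and 0.51 to 0.59 for Cxcl16, and without a library from 2.11 to 2.47, 1.26 to 1.52, 2.56 to 3.01 and 0.54 to 0.60. The largest adjusted p was 0.00225, for Cxcl16. With the replicate block the log2 fold changes were 2.25, 1.38, 2.76 and 0.57, and no call on the 4 genes changed. Of the 88 tested genes of all 12 lists of pathway genes, other chemokines and neighbors, those called lower numbered 7 and fell to 4 without PP2Ac KO replicate 3 or without PP2Ac WT replicate 2 (range 4 to 6 without a library, 5 to 9 otherwise), the cause of which was not tested. Those called higher numbered 59 (57 to 66, and 56 to 64 without a library). For ratios, a paired exact sign-flip test gave p = 0.25, the smallest that 3 pairs allow. The difference for Cxcl9 against Cxcl11 was least stable, from -0.71 to -0.36 without a library. Upper-quartile scaling moved the median of all genes to -0.09. With 3 libraries a group, spread is poorly known, and Cxcl5, Ackr3 and Art3 rest on few counts.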
